A study of Mus musculus with 6 samples.

Results

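The genes described here are 10 secreted proteins that organise or crosslink the extracellular matrix of the skin. They comprise the matricellular genes *Thbs1*, *Thbs2*, *Tnc*, *Postn*, *Spp1* and *Sparc*, the adhesive glycoprotein gene *Fn1*, and the lysyl oxidase genes *Lox*, *Loxl1* and *Loxl2*. They were picked by name, through their Ensembl identifiers in the GENCODE M21 annotation of GRCm38, from a count table of 26579 genes. All 10 were in the table and passed the filter on low counts, reaching 1 CPM (read counts scaled to library size) in each of the 6 libraries. The RNA-Seq libraries were made from skin of the dorsal neck, 3 from wild type (WT) and 3 from YAP2-5SA-∆C transgenic (TG) mice, all of them female littermates at postnatal day 33. YAP2-5SA-∆C is a mildly activated mutant of the transcriptional cofactor YAP that is expressed in basal keratinocytes, whereas the biopsies were whole skin, with epidermis, dermis and the tissue under it. In such bulk samples, fewer cells of a type and less RNA per cell cannot be told apart.

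Matricellular proteins are secreted into the matrix but do little to bear load. They bind collagens, growth factors, proteases and cell surface receptors such as integrins, and in skin many of them are produced during wound repair and around the growing hair follicle. Fibronectin forms fibrils on which cells and other matrix proteins assemble. Lysyl oxidases are copper-dependent enzymes that oxidise lysines of collagen and elastin, which then form the covalent crosslinks that stiffen the matrix. Several of these genes are known targets or partners of YAP and TGF-β signalling in cultured cells and in fibrotic tissue.

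The libraries held between 11225705 and 19505036 counts, and between 19.3% and 23.1% of them fell on mitochondrially encoded genes. *Yap1*, the mouse gene of the overexpressed protein, had 142, 125 and 126 CPM in WT replicates 1, 2 and 3 and 136, 144 and 130 CPM (129.6) in TG replicates 1, 2 and 3, so the genotypes overlapped at this locus. Its log2 fold change was 0.06 (SE 0.07, FDR 0.635), and the sources used here do not say if transgene reads can be counted there. Multidimensional scaling used, for each pair of libraries, the 500 genes with the largest fold changes between them. On its first axis TG replicate 2 stood apart at 2.24, beyond 0.30 and 0.26 in the other TG libraries and −1.20 to −0.51 in WT. The same library had the lowest hair shaft and inner root sheath markers, 1445 summed CPM against 6835 and 8630 in the other TG libraries and 12770 to 15570 in WT. For the log2 fold changes and correlations that this library moved most, the values without it are given as well.

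Among the 10 genes, *Thbs1* rose in YAP2-5SA-∆C skin, 1.42-fold, and it was the 1 member past a false discovery rate (FDR) of 0.05 in the edgeR quasi-likelihood test. That test called 1.91% of the 15102 genes tested in either direction and 1.44% as higher in TG. The fitted change was above 0 for 9 of the 10 genes, with a median log2 fold change of 0.42 against −0.01 over all genes tested. At an unadjusted p under 0.05, 6 members were higher (*Thbs1*, *Thbs2*, *Tnc*, *Spp1*, *Lox* and *Loxl1*), where 13.3% of all genes were, and 0 were lower, where 13% of all genes were. In 5 members, namely the same genes without *Spp1*, all 3 TG libraries lay above all 3 WT libraries, a pattern found in 15.5% of all genes, and in 0 members the TG libraries all lay below WT, as they did in 18.2% of all genes. The likelihood-ratio test of edgeR placed 4 members past the threshold as higher (*Thbs1*, *Thbs2*, *Tnc* and *Spp1*), and it did so for 5.52% of all genes. The 95% intervals of the other 4 members, *Postn*, *Sparc*, *Fn1* and *Loxl2*, included 0, and the first 3 of these had the highest mean levels of the set per exon length.

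**Figure D1:**
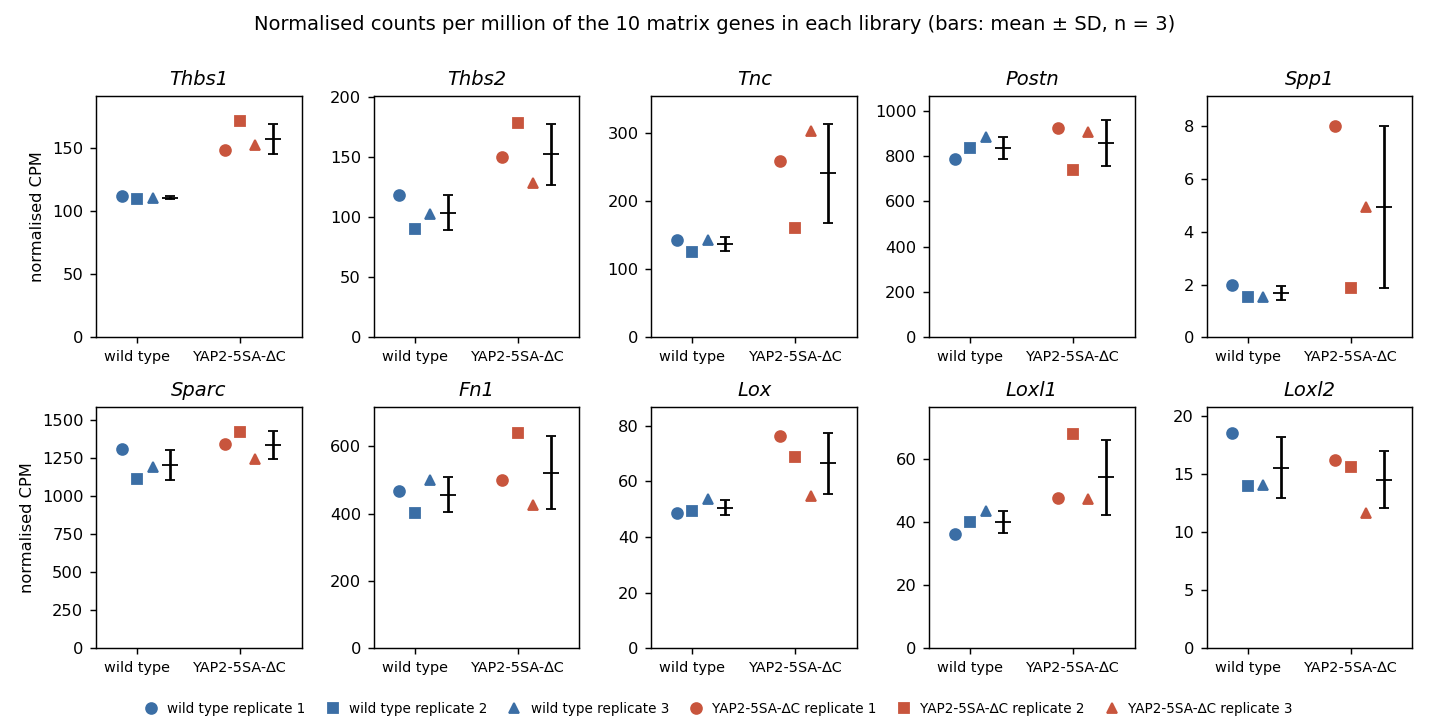
Normalised CPM (y axis, starting at 0) of each of the 10 genes in the 3 wild type libraries (blue) and the 3 YAP2-5SA-∆C libraries (red), with the mean and SD of each genotype as bars. *Thbs1* shows a WT group packed between 109 and 111 CPM under TG values of 148 to 171 CPM, while in *Tnc* and *Spp1* the TG libraries are spread, with TG replicate 2 next to the WT values.

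The thrombospondins are trimeric or pentameric glycoproteins, and both *Thbs1* and *Thbs2* encode trimeric, anti-angiogenic members. *Thbs1* (ENSMUSG00000040152, chromosome 2 of GRCm38 from 118111876 to 118127133, plus strand) encodes thrombospondin 1, which can activate latent TGF-β and binds CD47 and CD36. Its normalised CPM were 111, 109 and 110.1 in WT replicates 1 to 3 and 148, 171 and 152 in TG replicates 1 to 3. The WT libraries were within 3 CPM of each other and every TG library was above all of them. The means were 110.2 ± 1.24 CPM in WT and 157 ± 12.1 CPM in TG (SD, n = 3), with coefficients of variation of 1.12% and 7.74%. The fit gave a log2 fold change of 0.51 (SE 0.07, 95% interval 0.35 to 0.67, FDR 0.0346). With 1 library left out it stayed between 0.46 and 0.57. The FDR was 0.0127 without TG replicate 2 and 0.0481 without TG replicate 1. The call was lost without TG replicate 3 (FDR 0.0906) and without WT replicate 1 (0.055), 2 (0.178) or 3 (0.134).

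*Thbs2* (ENSMUSG00000023885, chromosome 17 from 14665500 to 14694235, minus strand) encodes thrombospondin 2, which is made by dermal fibroblasts and is known for its role in collagen fibril assembly. Its WT libraries had 119, 90.0 and 103 CPM and its TG libraries 150.1, 179 and 128 CPM. No TG library overlapped with WT, but the gap between the highest WT and the lowest TG library was small beside the spread within either genotype. This was a log2 fold change of 0.55 (SE 0.14, 95% interval 0.21 to 0.89, fold 1.47, FDR 0.0759). Its estimate was close to that of *Thbs1*, with a wider standard error.

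*Tnc* (ENSMUSG00000028364, chromosome 4 from 63959785 to 64047015, minus strand) encodes tenascin C, a large glycoprotein that is scarce in resting dermis and abundant at the dermal-epidermal border of wounded and hyperproliferative skin. It had 143, 126 and 142 CPM in WT and 259, 161 and 303 CPM in TG. TG replicates 1 and 3 were far above every WT library, whereas TG replicate 2 was just above the highest WT value. The means were 137 ± 9.76 CPM and 241 ± 72.9 CPM (SD, n = 3), and the coefficient of variation was 7.11% in WT and 30.3% in TG. The difference on the log2 scale was 0.81 (SE 0.21, 95% interval 0.31 to 1.32, fold 1.75, FDR 0.0769). Without TG replicate 2 the log2 fold change was 1.05 and the FDR 0.00824, in a fit that called 817 of 14950 genes (5.46%) against 288 with all libraries. Without TG replicate 3 the log2 fold change was 0.61 (FDR 0.132), without TG replicate 1 it was 0.78 (FDR 0.138), and without a WT library the FDR was 0.125 to 0.227.

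*Spp1* (ENSMUSG00000029304, chromosome 5 from 104435118 to 104441050, plus strand) encodes osteopontin, a phosphoprotein that binds integrins and CD44 and is made by activated macrophages, among other cells. It was the member with the fewest reads, 36, 29 and 16 raw counts in WT and 144, 32 and 79 in TG. In normalised CPM this gave 1.98, 1.52 and 1.52 in WT and 8.01, 1.88 and 4.93 in TG. TG replicate 2 was inside the WT range, and the other TG libraries were above it. Its log2 fold change was the largest of the 10 and had the widest interval, 1.55 (SE 0.49, 95% interval 0.39 to 2.71, fold 2.93, FDR 0.109). Without TG replicate 2 it was 1.96 with an FDR of 0.0147, in that same fit with more calls over all genes. Without TG replicate 1, the highest library, it was 1.03 (FDR 0.203), and without any of the other libraries the FDR was 0.159 to 0.283.

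*Postn* (ENSMUSG00000027750, chromosome 3 from 54361109 to 54391037, plus strand) encodes periostin, a fibroblast product that binds collagen, fibronectin and tenascin C and brings collagen-processing enzymes together. Its CPM were 787, 835 and 882.5 in WT and 923, 739 and 908 in TG. The lowest and the highest of the 6 values were both TG libraries. *Postn* had a log2 fold change of 0.04 (SE 0.11, 95% interval −0.21 to 0.29, FDR 0.85), and 0.15 without TG replicate 2. *Sparc* (ENSMUSG00000018593, chromosome 11 from 55394500 to 55423183, minus strand) encodes osteonectin, a collagen-binding protein needed for normal dermal fibrils. It had 1312, 1113 and 1194 CPM in WT and 1343, 1427 and 1245 CPM in TG. TG replicate 3 was below WT replicate 1, and the log2 fold change of 0.15 (SE 0.10, 95% interval −0.08 to 0.38, FDR 0.365) was not separated from 0. It was 0.095 to 0.22 with 1 library left out, lowest without WT replicate 2.

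*Fn1* (ENSMUSG00000026193, chromosome 1 from 71585520 to 71653200, minus strand) encodes fibronectin. Its CPM were 469, 401 and 502 in WT and 501.5, 641 and 425 in TG, so TG replicate 2 was the highest library while TG replicate 3 lay within the WT range. The log2 fold change was 0.19 (SE 0.16, 95% interval −0.18 to 0.57, FDR 0.474). It was 0.04 without TG replicate 2, 0.32 without TG replicate 3 and 0.11 without WT replicate 2.

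**Figure D2:**
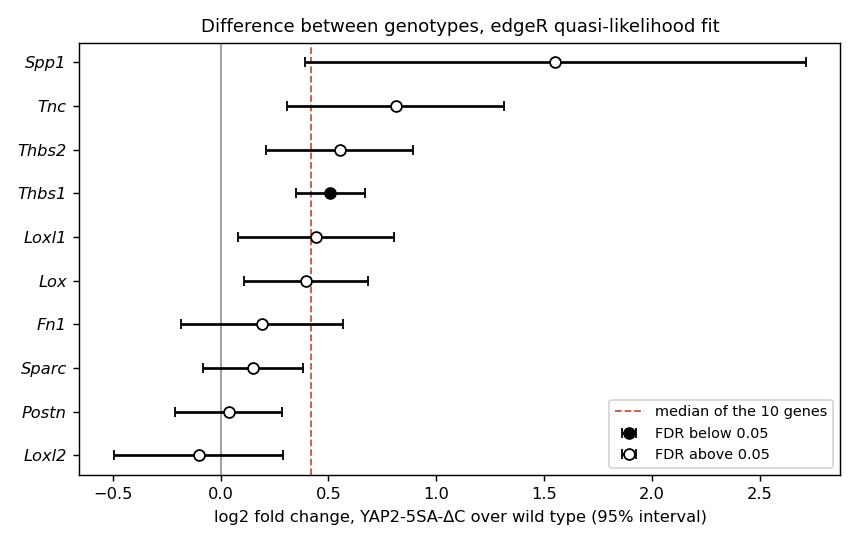
Log2 fold change of YAP2-5SA-∆C over wild type skin (x axis) with its 95% interval for each gene (y axis), from the edgeR quasi-likelihood fit on 3 libraries a genotype. The filled point, *Thbs1* at 0.51, is past an FDR of 0.05, the open points are not, the grey line is at 0 and the dashed line is the median of the 10 genes, 0.42.

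*Lox* (ENSMUSG00000024529, chromosome 18 from 52516067 to 52529867, minus strand) encodes the founding lysyl oxidase, which acts on fibrillar collagen and elastin. It had 48.6, 49.3 and 53.7 CPM in WT and 76.1, 68.6 and 54.6 CPM in TG. The TG libraries were all higher than WT, yet TG replicate 3 exceeded WT replicate 3 by less than the SD of either genotype (2.74 CPM in WT and 10.9 CPM in TG). Its log2 fold change was 0.40 (SE 0.12, 95% interval 0.11 to 0.68, FDR 0.102). *Loxl1* (ENSMUSG00000032334, chromosome 9 from 58287738 to 58313186, minus strand) encodes the lysyl oxidase best known for elastic fibre upkeep. Its CPM were 36.3, 40.03 and 43.4 in WT and 47.5, 67.9 and 47.1 in TG, again without overlap, with TG replicate 2 well above the other TG libraries. The log2 fold change was 0.44 (SE 0.15, 95% interval 0.08 to 0.80, FDR 0.132), and it was 0.26 without TG replicate 2.

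*Loxl2* (ENSMUSG00000034205, chromosome 14 from 69609068 to 69695834, plus strand) encodes a lysyl oxidase with scavenger receptor domains that acts on basement membrane collagen IV. It was the member with a fitted change below 0. Its CPM were 18.5, 14.0 and 14.1 in WT and 16.2, 15.6 and 11.7 in TG, with overlapping genotypes. The log2 fold change of −0.10 (SE 0.17, 95% interval −0.49 to 0.29, FDR 0.73) changed sign with the libraries used, to 0.05 without WT replicate 1 and 0.03 without TG replicate 3.

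The mix of the lysyl oxidases was compared within each library, since a share does not depend on the scaling between libraries. CPM were divided by the summed exon length of each gene and given as percent of the total over *Lox*, *Loxl1*, *Loxl2*, *Loxl3* and *Loxl4*. *Lox* and *Loxl1* together made up most of the total in both genotypes. *Lox* was 35.8% ± 0.36 in WT and 36.4% ± 4.52 in TG, and *Loxl1* was 40.9% ± 2.08 in WT and 42.8% ± 5.13 in TG (SD, n = 3). The share of *Loxl2* was 11.99%, 8.91% and 8.39% in the WT libraries and 7.82%, 6.71% and 6.47% in the TG libraries. All TG libraries were therefore below all WT libraries, with a mean difference of −2.76 points, which was −1.65 without WT replicate 1. The level of *Loxl2* itself overlapped between genotypes (2.87 and 2.68 mean CPM per kb in WT and TG), while the mean levels of *Lox* (10.6 and 13.9) and *Loxl1* (12.1 and 16.4), which make up most of the total, were higher in TG. The level of *Loxl4* was also higher in TG without overlap (2.78 and 4.11 mean CPM per kb, log2 fold change 0.56, FDR 0.0575). A two-sided exact permutation test gave p = 0.1 for *Loxl2*, the smallest value that 3 against 3 allows, and 0.5 after adjustment over the 5 genes. The shares of the other 4 genes overlapped between genotypes, with exact p between 0.3 and 1.

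**Figure D3:**
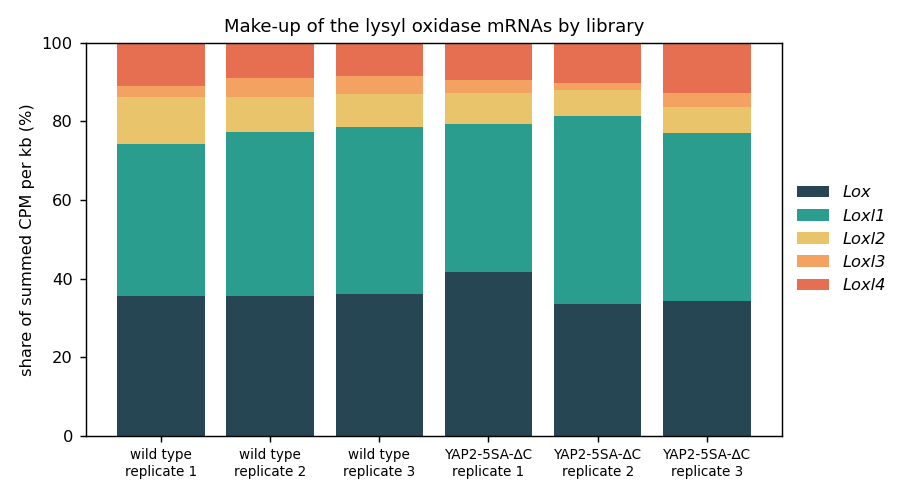
Share of each of the 5 lysyl oxidase genes (stacked colours, percent of their summed CPM per kb of exon) in each of the 6 libraries. *Lox* and *Loxl1* fill most of every bar, and the *Loxl2* band is thinner in the 3 YAP2-5SA-∆C libraries (6.47% to 7.82%) than in the 3 wild type libraries (8.39% to 11.99%).

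Levels were also compared between genes, as CPM per kb of exon. *Sparc* was the most abundant with 318 ± 26.5 in WT and 353 ± 24.0 in TG, followed by *Postn* with 95.9 ± 5.48 and 98.4 ± 11.8, and *Fn1* with 39.1 ± 4.40 and 44.7 ± 9.36 (SD, n = 3). *Sparc*, *Postn* and *Fn1* were separated from each other in both genotypes, and *Fn1* from *Thbs1*. *Fn1* was also above *Tnc* in WT, but their ranges overlapped in TG, and in TG replicate 3 *Tnc* (39.0 CPM per kb) exceeded *Fn1* (36.4). *Thbs1*, *Tnc* and *Thbs2* came next, at 18.1 ± 0.204, 17.7 ± 1.26 and 14.8 ± 2.07 CPM per kb in WT and 25.8 ± 2.00, 31.0 ± 9.38 and 21.7 ± 3.60 in TG. *Tnc* overlapped with *Thbs1* and with *Thbs2*, and *Loxl1* with *Lox*, in either genotype, and the order within these pairs was not the same in every library. *Thbs2* and *Loxl1* also had overlapping ranges, but within each of the 6 libraries *Thbs2* was above *Loxl1*, and *Thbs1* above *Thbs2*. *Loxl1* had 12.1 ± 1.07 CPM per kb in WT and 16.4 ± 3.60 in TG, and *Lox* 10.6 ± 0.574 and 13.9 ± 2.29. *Loxl2* (2.87 ± 0.481 in WT and 2.68 ± 0.454 in TG) was below *Lox* in every library. *Spp1* was lowest in WT with 1.01 ± 0.161 and in TG reached 3.00 ± 1.86, where it overlapped with *Loxl2*.

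The members did not vary together among the TG mice. TG replicate 2 was the lowest TG library for *Tnc*, *Postn* and *Spp1* and the highest for *Thbs1*, *Thbs2*, *Sparc*, *Fn1* and *Loxl1*. Its log2 CPM were 0.53 and 1.16 below the TG mean in *Tnc* and *Spp1*, and 0.24, 0.32 and 0.35 above it in *Thbs2*, *Fn1* and *Loxl1*. *Lox* and *Loxl2* formed a further pattern, with TG replicate 1 highest and TG replicate 3 lowest. As a description over the 6 libraries, which share their genotype groups and have no test here, the member closest to *Thbs2* by Pearson r of the deviations from the genotype means was *Sparc* (0.98). *Fn1* was closest to *Thbs2* (0.87), *Loxl2* to *Sparc* (0.87) and *Lox* to *Fn1* (0.58). These relations had the same sign over the 5 libraries without TG replicate 2, a check chosen after seeing the data, at 0.99 for *Thbs2* with *Sparc*, 0.76 for *Fn1* with *Thbs2*, 0.88 for *Loxl2* with *Sparc* and 0.71 for *Lox* with *Fn1*. The other nearest pairs rested on that library and changed sign without it. *Spp1* with *Tnc* went from 0.82 to −0.43, *Tnc* with *Postn* from 0.84 to −0.14, and *Thbs1* with *Loxl1* from 0.86 to −0.43.

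**Figure D4:**
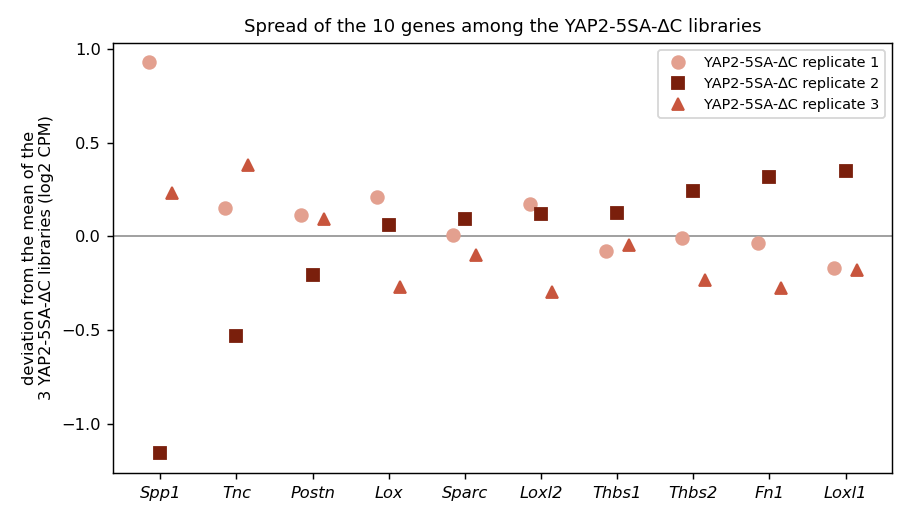
Deviation of each YAP2-5SA-∆C library from the mean of the 3 transgenic libraries (y axis, log2 CPM) for the 10 genes, ordered along the x axis by the value of TG replicate 2 (dark squares). This library runs from −1.16 in *Spp1* to 0.35 in *Loxl1*, so it is lowest for the genes at the left and highest for those at the right.

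Markers of the cells that make these proteins moved with some of these values, and their part in them was not tested. All 10 fibroblast markers were detected, and none was at 0. Their summed CPM was 1932 to 2202 in WT and 2299 to 2646 in TG, without overlap. However, 0 of the 10 markers passed the FDR threshold, and the median log2 fold change was 0.21. At an unadjusted p under 0.05, 4 were higher and 1 was lower, beside 13.3% and 13% of all genes. The lowest p among them belonged to *Fap* (log2 fold change −0.58, FDR 0.0584) and *Pdgfrb* (0.39, FDR 0.0875). Among the TG libraries the summed fibrillar collagens (14090, 15560 and 11850 CPM in TG replicates 1, 2 and 3) had the same order as *Thbs2*, *Sparc*, *Fn1* and *Loxl1*. The summed basal keratinocyte markers (5903, 7540 and 6259 CPM in the same libraries) had the same order as *Thbs1*. The 6 stress keratinocyte markers (2096, 1239 and 2422 summed CPM in the same libraries, against 1201 to 1592 in WT) had the same order as *Tnc*, as did the hair shaft markers. The most abundant of these 6, *Krt17*, was lower in TG without overlap, at 962 to 1213 CPM in WT and 475 to 870.2 CPM in TG, against the direction of the list (log2 fold change −0.63, FDR 0.128). The 10 macrophage markers, all detected, summed to 506 to 623 CPM in WT and 757 to 827 in TG. All 10 were higher in TG without overlap between the genotypes, as were 15.5% of all genes. Past the FDR threshold as higher were 2 (*Mrc1*, 0.54, FDR 0.0341, and *Csf1r*, 0.54, FDR 0.0456), beside 1.44% of all genes. The sum did not follow the order of *Spp1* among the TG libraries. The less abundant macrophage markers *Cd14* (6.79, 3.41 and 6.43 CPM in TG replicates 1 to 3, 1.78 to 2.19 in WT) and *Itgam* (30.9, 23.1 and 27.7 CPM in TG, 15.1 to 19.2 in WT) did have that order. So did *Cd68* (30.8, 28.5 and 29.3 CPM in TG, 21.2 to 25.3 in WT). All other markers of this list, *Mrc1* and *Csf1r* among them, went against it, with TG replicate 1 as their lowest TG library.

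To see how the members stood beside the fibroblast content of each biopsy, the mean log2 CPM of the 10 fibroblast markers was subtracted from the log2 CPM of each member in each library. This mean was itself 0.12 higher in TG. *Thbs1* was then 0.38 higher in TG on the log2 scale, *Thbs2* 0.42 and *Tnc* 0.64, *Lox* 0.26 and *Loxl1* 0.30, and in all 5 the TG libraries were above the WT libraries, as they were for 8.45% of all genes tested on this ratio. For *Lox* the genotypes almost met, at −1.184 in TG replicate 3 and −1.187 in WT replicate 2. The two-sided exact permutation p was 0.1 for each of the 5, the smallest that the design allows, and 0.2 after adjustment over the 10 members. *Sparc* (0.03), *Fn1* (0.05), *Postn* (−0.09) and *Loxl2* (−0.23) overlapped between genotypes, and so did *Spp1* (1.22). With a reference of the 4 markers *Pdgfra*, *Pdgfrb*, *Dcn* and *Lum*, 2 of the 10 members were higher without overlap (3.99% of all genes), and with the fibrillar collagens 4 were (7.07% of all genes).

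**Figure D5:**
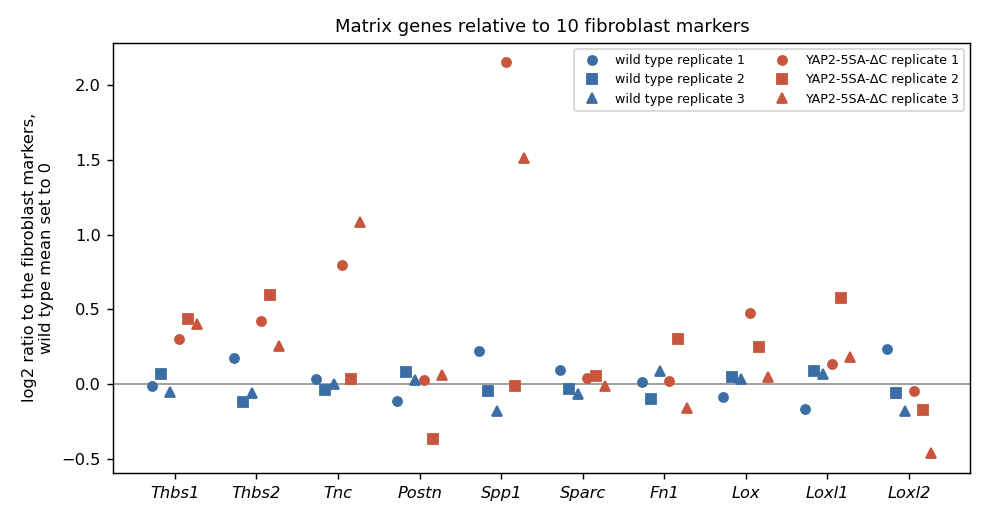
Log2 ratio of each member to the mean of 10 fibroblast markers in each library (y axis), with the wild type mean of each gene set to 0. The red YAP2-5SA-∆C points of *Thbs1*, *Thbs2*, *Tnc*, *Lox* and *Loxl1* lie above all blue wild type points, and in the other 5 genes the red and blue points overlap. In *Lox* the lowest red point is almost level with the highest blue point.

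The relatives of these genes gave a mixed picture, again from the edgeR quasi-likelihood fit. Of 22 matricellular and adhesive relatives, 18 could be tested, 0 were past the FDR threshold as higher and 1 as lower. That gene was *Ctgf*, connective tissue growth factor and a known YAP target, which fell from 25.1 ± 1.06 to 14.2 ± 1.69 CPM (SD, n = 3), a log2 fold change of −0.82 (SE 0.10, FDR 0.0327). Its FDR was 0.0131 without TG replicate 2, and the call was lost without any of the other 5 libraries (FDR 0.051 to 0.177). *Cyr61*, another known YAP target in this list, went the other way. It had 9.56 CPM in WT and 12.3 CPM in TG on average, without overlap (log2 fold change 0.36, FDR 0.0678). At an unadjusted p under 0.05, 9 of the 18 were higher and 2 lower, where 13.3% and 13% of all genes were, and the median log2 fold change of the list was 0.32. *Tnr*, *Comp*, *Spock1* and *Spock3* did not pass the filter on low counts, nor did *Tll2* and *Col2a1* of the lists that follow.

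Of 24 genes of collagen crosslinking and maturation, 23 were tested and 1 was called. *P4ha3*, a subunit of a collagen prolyl 4-hydroxylase, rose from 0.562 ± 0.0981 to 1.53 ± 0.108 CPM (log2 fold change 1.47, SE 0.24, FDR 0.0436). It rested on 7 to 10 counts in the WT libraries and passed the filter on low counts only through its TG libraries. The call was lost without any WT library (FDR 0.0731 to 0.186), and without any TG library the gene did not pass the filter. In this list 6 of 23 genes were higher and 1 was lower at an unadjusted p under 0.05, beside the same 13.3% and 13% of all genes, with a median of 0.12.

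Among the substrates, 0 of 10 tested fibrillar collagens were called, and the median was 0.21. At an unadjusted p under 0.05, 3 were higher, beside 13.3% of all genes. The lowest p belonged to *Col27a1* (log2 fold change 0.59, FDR 0.139) and *Col5a2* (0.18, FDR 0.152). For the 15 elastic fibre genes there were 0 calls, with a median of 0.12. At an unadjusted p under 0.05, 2 were higher and 1 lower, beside 13.3% and 13% of all genes. Elastin, *Eln*, was nearest to the threshold (0.41, SE 0.09, FDR 0.0596), and *Ltbp3*, a latent TGF-β binding protein, had −0.35 (FDR 0.0822).

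Of the 17 receptors of these proteins, 0 passed the FDR threshold, and the median was 0.10. At an unadjusted p under 0.05, 6 were higher and 1 lower, beside 13.3% and 13% of all genes. The lowest p values were those of *Ddr2*, a collagen receptor kinase (0.48, SE 0.10, FDR 0.0589), and *Itga5*, the fibronectin receptor α5 integrin chain (0.40, FDR 0.079). With the likelihood-ratio test of edgeR, 2 of the matricellular relatives were higher and 2 lower, and 2 of the crosslinking genes were higher and 1 lower. In addition, 1 receptor was higher, and 0 fibrillar collagens and elastic fibre genes passed. That test called 10.4% of all genes in either direction. The medians of all 5 lists were above the −0.01 of all genes tested and below the 0.42 of the 10 members.

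The hexamer GGAATG, the core of the binding motif of the TEAD factors that YAP acts through, was looked for on both strands of RefSeq promoter windows of GRCm38.p6. Windows were held for 5 members (*Tnc*, *Postn*, *Spp1*, *Thbs2* and *Sparc*), and 0 of their 8 windows had these letters, against 14.7% of 32851 windows of the same length. At such a share, so few windows cannot show if the members differ from other genes, and *Thbs1* had no window. Enhancers and the untranslated regions that the paper searched for such motifs were not searched here.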

How the data were processed

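Each of the 6 libraries came from a whole skin punch biopsy of 1 mouse. The table deposited by the authors holds raw counts for each Ensembl gene. Paired-end reads had been mapped with TopHat2, which calls Bowtie2 (2.1.0), on GRCm38, and the authors counted uniquely mapped reads with HTSeq-count, so reads shared by near-identical genes are missing. The TopHat2 version is 2.0.12 in the submitters' processing notes, and the study's methods name another version. The strand setting of the counting is not given in the sources used here, so antisense neighbours could add reads. Those in the table that overlap exons of *Tnc*, *Fn1* and *Loxl2* had at most 10 counts. Preparation batches are not given in the sources used here.

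The 15102 of 26579 genes that reached 1 CPM in 3 or more libraries were scaled with TMM and tested on the raw counts with the quasi-likelihood test of edgeR 4.0.16 in R 4.3.3, with genotype as the only term and Benjamini-Hochberg adjustment over all 15102 genes (FDR, threshold 0.05). The quasi-likelihood test was used in place of the study's likelihood-ratio test (edgeR) and voom (limma 3.58.1), which were run as alternatives. The Wald test of DESeq2 1.42.0 was a further alternative. The standard error was the size of the log2 fold change divided by the square root of F. Normalised CPM are counts relative to the TMM-scaled library size, and exon lengths and positions came from GENCODE M21, in which 558 identifiers of the table are absent. Library totals were 11225705 to 19505036 counts, and the lowest member, *Spp1*, had 16 to 144 counts per library. The p-values of the fits weigh the difference between genotypes against the variation among the mice within each genotype. Information on that variation is shared over genes. Alternatives also covered scaling (RLE, upper quartile), the count filter, omission of mitochondrially encoded genes, a block on the replicate number and fits that each lacked 1 library. The code was tested on simulated data.

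The 10 members, the lists of related genes (matricellular and adhesive relatives, collagen crosslinking and maturation, fibrillar collagens, elastic fibre, receptors) and the cell type markers were chosen with earlier results of these data known. The text names all members and, from each list it describes, the genes past the threshold (at most 4) or otherwise the 2 with the lowest p, and the markers of smooth muscle, skeletal muscle, adipocyte, endothelial and basal keratinocyte cells are given as sums in the closing section. *Yap1*, *Loxl3*, *Loxl4*, *Pdgfra*, *Dcn*, *Lum*, *Cyr61*, *Krt17*, *Cd14*, *Itgam*, *Cd68* and the genes of these lists under the count filter are named outside this rule. Of these, *Cyr61*, *Krt17*, *Cd14*, *Itgam* and *Cd68* were named, and the level of *Loxl4* was given, after their values were seen. *Krt85* was not matched to the table.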

Additional observations from a re-analysis of the deposited data

How the results depend on the processing

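Members past the threshold numbered 1 in the quasi-likelihood fit, and also under RLE and upper-quartile scaling, both other count filters, voom and omission of mitochondrially encoded genes. These fits called 1.65% (voom) to 2.75% (upper quartile) of all genes. There were 4 with the likelihood-ratio test, which called 1568 genes in all (10.4%), and 5 with DESeq2, which called 1590 (10.5%). With a replicate block 0 members and 0 genes in all were called, with 6 members and 19.5% of all genes at an unadjusted p under 0.05 (*Thbs1* log2 fold change 0.51, FDR 0.162). The replicate numbers did not pair the mice (correlations of same-numbered deviations −0.35, −0.26 and −0.07). Leaving out 1 library gave 0 to 3 members, with 3 (*Thbs1*, *Tnc* and *Spp1*) without TG replicate 2, 1 without TG replicate 1 and 0 without TG replicate 3 or any WT library, where 4 to 6 members had an unadjusted p under 0.05, beside 18.2% to 25.7% of all genes. Calls over all genes moved too, from 288 (1.91%) to 817 (5.46%) without TG replicate 2, 83 (0.557%) without TG replicate 1, 142 (0.949%) without WT replicate 1, and 0 without WT replicate 2, WT replicate 3 or TG replicate 3. Calls in the lists of related genes, 2 in the quasi-likelihood fit, were 5 with no count filter, 1 with at least 10 counts in every library, 8 with the likelihood-ratio test, 15 with DESeq2, 0 with the block and 0 to 4 with 1 library left out. The lists had 0 calls without TG replicate 3 or any WT library. *Ctgf* was also lost without TG replicate 1 (FDR 0.0577), and *P4ha3* did not pass the count filter without any TG library. The median log2 fold change of the members was 0.33 to 0.53 with 1 library left out, the highest without TG replicate 3. Directions changed for *Loxl2* (log2 fold change −0.174 to 0.052 with 1 library left out), at 0.052 without WT replicate 1 and 0.034 without TG replicate 3, and for *Postn* (−0.004 to 0.15), at −0.004 without TG replicate 3. With 4 fibroblast markers as the reference, 2 members in place of 5 were higher without overlap. The cause was not tested. Precision at low counts bears on *Spp1*, which had 16 to 36 counts in WT and 32 to 144 in TG libraries, with coefficients of variation of 15.8% and 62.0%.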

Other observations

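The other cell types of the biopsies varied as follows, as sums of normalised CPM over each marker list. The 7 basal keratinocyte markers had 3593 to 4358 in WT and 5903 to 7540 in TG, with 1 of 7 past the FDR threshold (*Krt14*) and a median log2 fold change of 0.56. The 7 smooth muscle markers had 391 to 468 in WT and 297 to 407 in TG (median −0.38), and the 8 skeletal muscle markers 1461 to 7130 in WT and 1403 to 3611 in TG (median −1.10). The 7 adipocyte markers had 1360 to 1680 in WT and 1187 to 1800 in TG, and the 7 endothelial markers 120 to 136 in WT and 139 to 166 in TG. In these last 4 lists 0 markers passed the FDR threshold of the edgeR quasi-likelihood test. At an unadjusted p under 0.05, 1 smooth muscle marker was higher and 3 were lower, 2 endothelial markers were higher, and 0 skeletal muscle and adipocyte markers were called. Over all genes tested, 13.3% were higher and 13% lower at that p, and 1.44% were past the FDR threshold as higher. Of the 6 stress keratinocyte markers 2 passed the FDR threshold as higher (*Krt16* and *Krt6b*), and 1, *Krt17*, was lower at an unadjusted p under 0.05 and without overlap. Of the 9 hair shaft and inner root sheath markers tested 0 passed it, and all 9 were lower in TG without overlap, where 18.2% of all genes were. At an unadjusted p under 0.05, 8 of the 9 were lower, with the lowest p for *Msx2* (log2 fold change −1.13, FDR 0.0811) and *Krt28* (−1.39, FDR 0.133).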
